A study of Homo sapiens with 9 samples.

Results

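The actin cytoskeleton and SRF target genes ACTB, ACTG1, SRF, VCL, TAGLN, MYL9, TPM1, FHL2, FLNA and FILIP1L were followed after treatment with YM-155. The cells were MDA-MB-231, a long-established breast carcinoma line first grown out of pleural fluid. These 10 genes were chosen by name, and a probe set counted for a gene only if it carried that symbol and no other. Of them, 9 had such a probe set, 1 each, among the 22109 genes measured. FLNA, which encodes the actin crosslinker filamin A, was not analysed here. YM-155, also called sepantronium bromide, was developed as an inhibitor of survivin expression. RNA was hybridised to Affymetrix whole-transcript arrays, with 3 arrays in each of 3 groups. The 20 h cells received YM-155 at 14.6 ng/ml, the concentration given as the LC50, for 20 h. The 8 h cells received YM-155 in steps that added up to 83 ng/ml and were collected at 8 h with no cell death seen. The control cells received no treatment. All groups shared the line, the medium with serum and the washing and freezing before extraction. YM-155 was dissolved in DMSO and diluted in salt solution, while no vehicle or collection time was given for the controls. Dose and time differ together between the treated groups, so neither can be told apart from the other. Every value below is an RMA value, the normalised probe set signal on the log2 scale, and a change is a difference of such values. The labels do not state whether replicates were separate cultures. The p-values thus reflect the spread between these samples only, which may be technical.

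Serum response factor, SRF, is a transcription factor that binds a short DNA element, the CArG box, in the promoters of actin, contractile and adhesion genes and of immediate early genes. It works with partner proteins of distinct kinds. The myocardin-related factors, encoded by MRTFA and MRTFB, are held back by free actin monomers and enter the nucleus when actin is assembled into filaments. The ternary complex factors, encoded by ELK1, ELK3 and ELK4, are switched on by MAP kinases. Actin genes and SRF itself are known targets of SRF, so the pathway feeds back on its own parts.

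The promoter windows of the genes are shown first, since the CArG box is the element by which SRF is known to reach them. RefSeq windows (GRCh38.p14) ran from 250 bases before the transcription start to 50 after it, and 7 of the 10 genes had at least 1 (12 windows in all). The 5 sequences below are written 5′ to 3′ on the gene's strand, with each CArG box in capitals. The first 4 hold a box, and that of VCL, which encodes vinculin, holds none.
SRF, chr6:43171019-43171318, plus strand: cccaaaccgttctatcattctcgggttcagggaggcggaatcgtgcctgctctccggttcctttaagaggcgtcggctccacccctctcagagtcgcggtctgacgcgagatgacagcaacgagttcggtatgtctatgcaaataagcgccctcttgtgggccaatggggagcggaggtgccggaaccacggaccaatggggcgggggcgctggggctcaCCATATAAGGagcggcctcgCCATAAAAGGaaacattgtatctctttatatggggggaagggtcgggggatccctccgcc
ACTG1, chr17:81512750-81513049, minus strand: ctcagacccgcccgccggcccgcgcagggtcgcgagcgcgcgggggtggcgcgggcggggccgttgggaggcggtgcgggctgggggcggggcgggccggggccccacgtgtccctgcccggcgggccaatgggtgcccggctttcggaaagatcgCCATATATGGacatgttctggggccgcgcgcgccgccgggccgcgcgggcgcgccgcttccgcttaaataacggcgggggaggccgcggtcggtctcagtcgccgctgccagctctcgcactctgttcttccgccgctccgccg
FHL2, chr2:105399002-105399301, minus strand: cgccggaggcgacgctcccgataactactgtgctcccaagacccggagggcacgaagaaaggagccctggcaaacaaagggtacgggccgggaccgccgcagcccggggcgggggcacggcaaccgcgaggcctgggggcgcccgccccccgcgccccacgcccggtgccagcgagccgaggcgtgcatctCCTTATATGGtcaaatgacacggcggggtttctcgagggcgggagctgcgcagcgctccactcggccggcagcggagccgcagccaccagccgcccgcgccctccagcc
FILIP1L, chr3:99876124-99876423, minus strand: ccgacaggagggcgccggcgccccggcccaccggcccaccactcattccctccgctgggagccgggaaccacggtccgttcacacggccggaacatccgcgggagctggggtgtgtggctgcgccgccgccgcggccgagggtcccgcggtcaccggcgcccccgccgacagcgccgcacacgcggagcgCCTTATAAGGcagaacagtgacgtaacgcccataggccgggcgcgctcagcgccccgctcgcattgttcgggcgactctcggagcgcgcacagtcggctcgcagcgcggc
VCL, chr10:73997866-73998165, plus strand: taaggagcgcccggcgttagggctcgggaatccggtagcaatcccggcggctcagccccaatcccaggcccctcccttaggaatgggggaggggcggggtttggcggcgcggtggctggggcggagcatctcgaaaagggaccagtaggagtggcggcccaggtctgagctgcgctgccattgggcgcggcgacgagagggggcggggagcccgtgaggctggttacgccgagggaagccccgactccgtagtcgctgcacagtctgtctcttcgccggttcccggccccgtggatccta
The SRF window shown held 2 CArG boxes, CCATATAAGG starting 30 bases and CCATAAAAGG starting 10 bases before the transcription start. In ACTG1 the box CCATATATGG started 94 bases before the start. In the FILIP1L window shown CCTTATAAGG started 60 bases before it, and in the FHL2 window shown CCTTATATGG started 59 bases before it. Another FHL2 start had the box CCTTAAAAGG 101 bases upstream, and the FLNA window had CCAATTAAGG 94 bases upstream. Neither the VCL nor the TPM1 window contained the element. ACTB, TAGLN and MYL9 had no window and were not searched. The other SRF window, the other FILIP1L window and a further FHL2 window also had none. The TPM1 window lay inside the gene, at chr15:63048239-63048538, while the gene itself starts at 63042747. Both strands were searched, and since the consensus reads alike on each, a match counts for both. Of all 35116 windows of the same length, 1.29% held a CArG box and 0.0313% held at least 2. Among the measured genes with a window, 258 of 15336 held a box. At 20 h, 14.7% of those 258 were called higher and 18.6% lower than in controls, beside 13.4% and 20.3% of all 15336. A match describes letters in a window, and a window without one says nothing about SRF.

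Before the results, the arrays themselves were compared. Control replicate 3 stood apart from the other controls: over genes above the median, the SD of its difference was 0.312 from control 1 and 0.313 from control 2, against 0.187 between controls 1 and 2. It was above both other controls for 7 of the 9 genes, with a median shift of 0.20 over them and of 0.01 over all genes. The shifts were 0.58 for SRF, 0.56 for ACTB and 0.47 for MYL9, while FHL2 (0.01) and VCL (0.04) had almost none. For the 9 genes, the value without it is given where this changed a call or moved a called value by over 1.5 times. For other genes and lists described below, such values are given for some only. The genes that define a mesenchymal breast line were bright, with 6 of 6 above the median of all genes (3.89). Leukocyte markers lay low, with 5 of 6 at or under that median, PTPRC lowest at a mean of 1.78 and CD68 alone bright at 9.69. At 20 h 3 of these 6 (CD14, CD68 and ITGAM) were called higher, beside 13.1% of all genes. ITGAM was not called without control replicate 3 (limma adjusted p = 0.0722). Of 7 luminal markers, 4 were above the median, with gene means from 2.01 to 6.08. At 20 h 0 of the 7 were called by limma, and 2 were higher at an unadjusted p under 0.05, beside 4040 of all 22109 genes. At 8 h CDH1 alone of them was called, higher by 0.45 (limma adjusted p = 0.0302), but not without control replicate 3 (limma adjusted p = 0.0773). Among smooth muscle markers, which would bring contractile genes with them, 2 of 8 were above the median. The averages over these 8 markers were 3.21 to 3.31 on 20 h arrays and 3.03 to 3.15 on 8 h arrays, against 2.98 to 3.15 on control arrays. SMTN was the 1 smooth muscle marker called higher at 20 h, and MYH11 and MYOCD were not called. Without control replicate 3 DES also passed at 20 h (0.70, limma adjusted p = 0.0345) and SMTN at 8 h (0.55, limma adjusted p = 0.0136). With arrays centred on the reference genes described below, 6 of the 8 smooth muscle, 5 of the 6 leukocyte and 4 of the 7 luminal markers were called higher at 20 h. That centring moved the median of all genes by 0.27 at 20 h. It called 14045 of all 22109 genes, 83.7% of them higher, so these marker counts include a shift of all genes. The part of such markers in the results was not tested. In RNA from bulk cultures, fewer cells of a kind and less RNA per cell cannot be told apart.

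SRF itself was higher at 20 h than in either other group. Its RMA values were 8.51, 8.77 and 8.69 in 20 h cells and 8.09, 8.18 and 7.97 in 8 h cells, against 7.74, 7.70 and 8.29 in controls. All 3 arrays at 20 h lay above every other array, whereas the 8 h values overlapped those of the controls because of control replicate 3. The change at 20 h was 0.75 (SE 0.15, limma adjusted p = 0.00352), a 1.68-fold rise. At 8 h the difference was 0.17 (SE 0.15, limma adjusted p = 0.571). Without control replicate 3 the 20 h change was 0.94 and the 8 h change 0.36, which then passed the threshold (limma adjusted p = 0.0485).

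**Figure D1:**
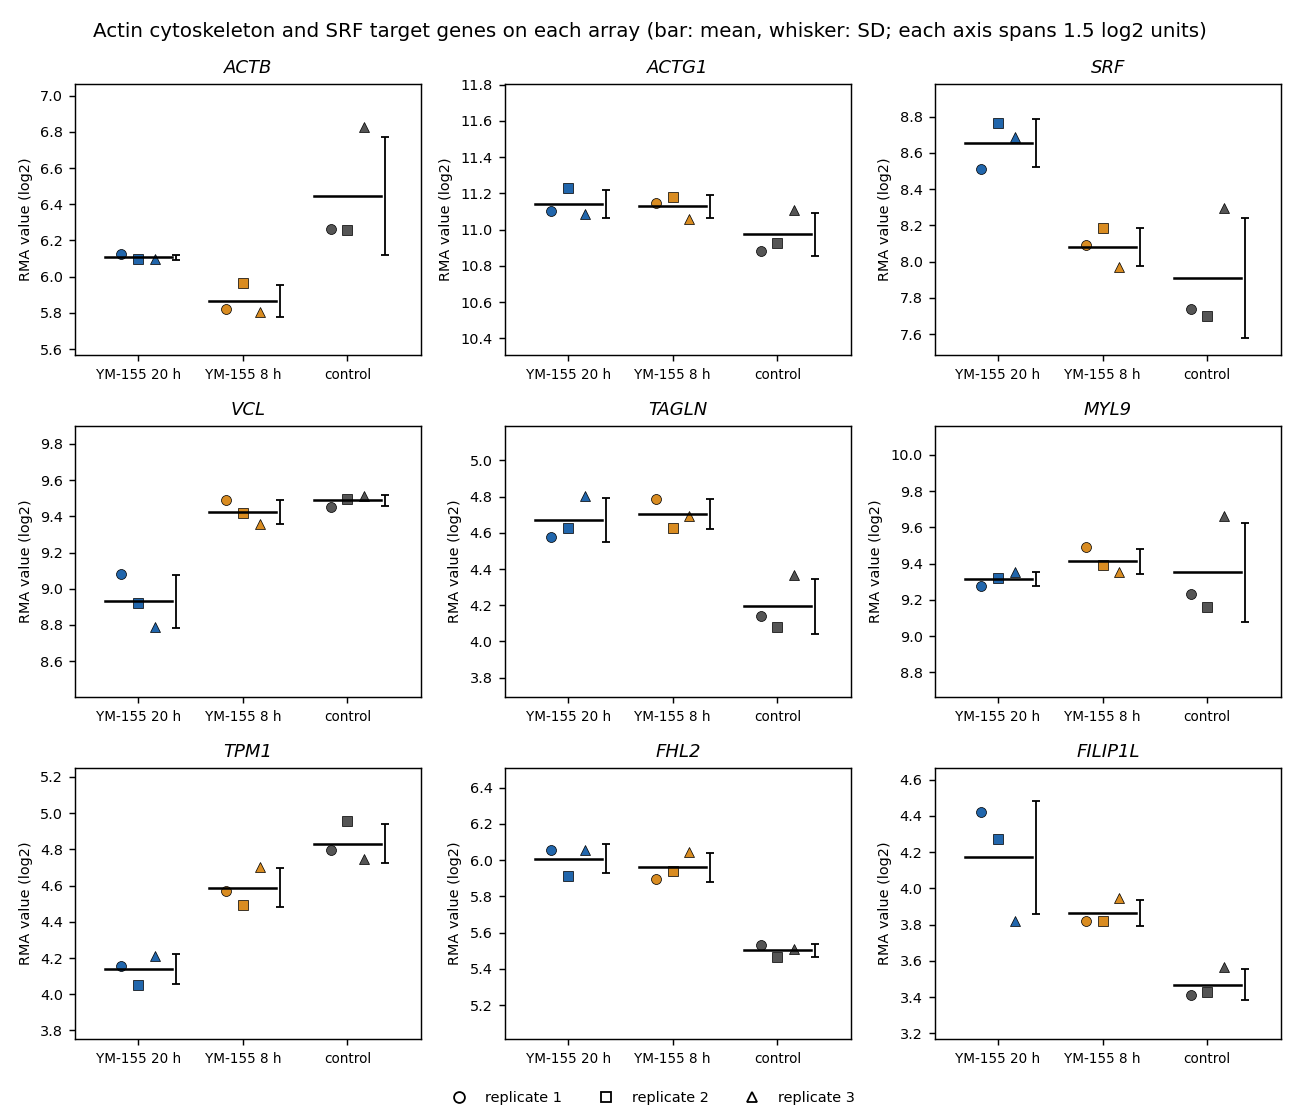
RMA values (log2) of the 9 measured genes on each array, with 20 h cells on the left, 8 h cells in the middle and controls on the right; symbols mark replicate numbers, bars the means and whiskers the SD (n = 3). Each axis spans 1.5 log2 units. SRF rises above all other arrays at 20 h, VCL and TPM1 fall at 20 h, and control replicate 3 lies high for ACTB, SRF and MYL9.

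Of 8 partners and regulators of SRF, 2 were called higher and 2 lower at 20 h, beside 13.1% and 17.2% of all genes. MRTFB read 6.16, 6.45 and 6.60 in 20 h cells and 7.16, 7.16 and 7.33 in 8 h cells, against 7.38, 7.27 and 7.52 in controls. Its 20 h arrays lay below all others, a fall of 0.98 (SE 0.12, limma adjusted p = 0.000134), close to 1.98-fold. SCAI, which encodes a nuclear suppressor of myocardin-related factors, also fell, by 0.56 at 20 h (SE 0.09, limma adjusted p = 0.000745) and by 0.32 at 8 h (SE 0.09, limma adjusted p = 0.0425). The 8 h call of SCAI ended without control replicate 3 (limma adjusted p = 0.0917) and with arrays centred on their medians.

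The ternary complex factor genes ELK1 and ELK3 rose at 20 h. ELK3 read 8.71, 8.80 and 8.80 in 20 h cells and 8.41, 8.41 and 8.39 in 8 h cells, against 8.14, 8.09 and 8.41 in controls, and its change was 0.56 (SE 0.09, limma adjusted p = 0.00112). ELK1 changed by 0.63 at 20 h (SE 0.14, limma adjusted p = 0.00591). The 20 h arrays of both genes lay above all control arrays. MRTFA, ELK4, MYOCD and ABRA, which encodes an activator of the myocardin-related pathway in striated muscle, were not called at either time, with differences from -0.19 to 0.28. MYOCD and ABRA read low, with control means of 2.33 and 2.92, under the median of all genes (3.89). Without control replicate 3 MRTFA was called higher at 20 h (0.42, limma adjusted p = 0.0106), which made 3 of the 8 higher and 2 lower. With arrays centred on the reference genes 4 were higher and 2 lower at 20 h, where 83.7% of all calls were higher. At 8 h 0 of the 8 partners were called higher by limma. At an unadjusted p under 0.05, 1 (ELK1) was higher, beside 2472 of all 22109 genes. Without control replicate 3 MRTFA, ELK1 and ELK3 were called higher at 8 h, with changes of 0.41, 0.57 and 0.29. Control replicate 3 was above the other controls for 7 of these 8 genes.

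**Figure D2:**
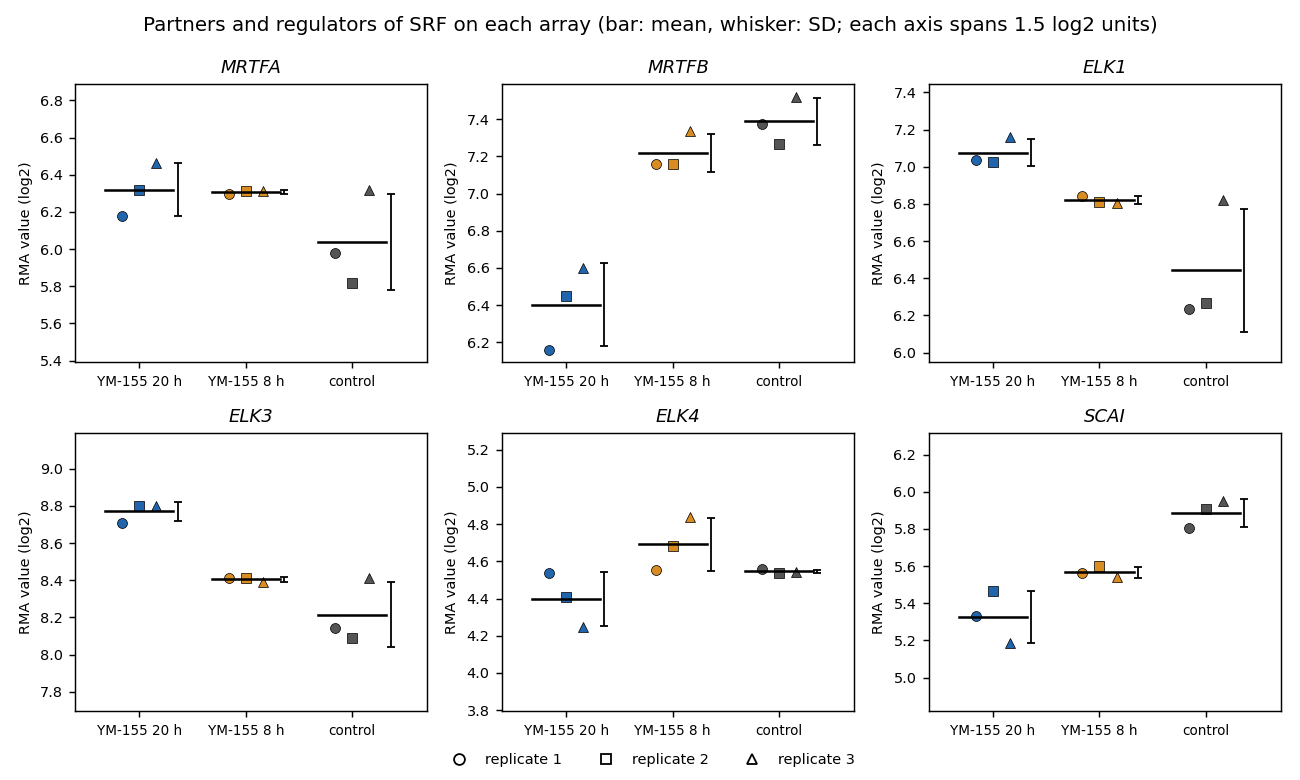
RMA values (log2) of 6 partners and regulators of SRF on each array, with 20 h cells on the left, 8 h cells in the middle and controls on the right; bars mark means and whiskers the SD (n = 3). At 20 h MRTFB and SCAI lie below all control arrays, and ELK1 and ELK3 lie above them.

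ACTB and ACTG1 encode the beta and gamma cytoplasmic actins, the filament proteins of non-muscle cells. Their coding sequences are nearly alike, so whether their probe sets share signal was not tested, and their levels are not set against each other. ACTB read 6.12, 6.10 and 6.10 in 20 h cells and 5.82, 5.97 and 5.81 in 8 h cells, against 6.26, 6.26 and 6.82 in controls. Every treated array was below every control array, and every 20 h array was above every 8 h array. ACTB fell by 0.58 at 8 h (SE 0.14, limma adjusted p = 0.0227), and by 0.39 without control replicate 3 (limma adjusted p = 0.0125). The 8 h call ended without 8 h replicate 1 (limma adjusted p = 0.0788) or 8 h replicate 3 (limma adjusted p = 0.0804). At 20 h the difference was -0.34 (SE 0.14, limma adjusted p = 0.0992), and it was -0.15 without control replicate 3.

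ACTG1 read 11.11, 11.23 and 11.09 in 20 h cells and 11.15, 11.18 and 11.06 in 8 h cells, against 10.88, 10.93 and 11.11 in controls. The treated arrays overlapped with control replicate 3 only. Its differences were 0.17 at 20 h (95% interval -0.03 to 0.36, limma adjusted p = 0.194) and 0.15 at 8 h (-0.04 to 0.35, limma adjusted p = 0.332), neither of them called. ACTB is often used to normalise expression, and 8 other such reference genes were measured. With arrays centred on these 8, the 20 h change of ACTG1 was 0.44 (limma adjusted p = 0.00347), while the median of all genes moved by 0.27. At 8 h PGK1 alone of these 8 was called, higher by 0.49, and without control replicate 3 GUSB was also lower, by 0.37 (limma adjusted p = 0.0385). At 20 h HPRT1 was lower by 0.99, PPIA by 0.64 and GUSB by 0.29, and the glycolytic enzyme gene GAPDH differed by 0.05 (SE 0.12, limma adjusted p = 0.798).

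The genes for proteins that bind along the actin filament did not move together. TAGLN encodes transgelin, an actin-bundling protein of smooth muscle and mesenchymal cells. It read 4.57, 4.63 and 4.80 in 20 h cells and 4.79, 4.63 and 4.69 in 8 h cells, against 4.14, 4.08 and 4.36 in controls. Both treated groups lay wholly above the controls and overlapped each other. TAGLN rose by 0.51 at 8 h (SE 0.10, limma adjusted p = 0.00903) and by 0.48 at 20 h (SE 0.10, limma adjusted p = 0.00462), or 1.42-fold and 1.39-fold. Its relatives TAGLN3 and TAGLN2 rose at 20 h, by 0.77 (limma adjusted p = 0.00999) and 0.48 (limma adjusted p = 0.0272).

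TPM1 encodes a tropomyosin, which lies along the filament and governs access of myosin. It read 4.16, 4.05 and 4.21 in 20 h cells and 4.57, 4.49 and 4.70 in 8 h cells, against 4.79, 4.95 and 4.75 in controls. The groups formed 3 steps without overlap, lowest at 20 h. TPM1 fell by 0.69 at 20 h (SE 0.09, limma adjusted p = 0.000222), a 1.62-fold reduction, while the 8 h difference of -0.24 (SE 0.09) had a limma adjusted p = 0.128. Which TPM1 transcripts the probe set reads was not analysed here, so its muscle and non-muscle forms cannot be told apart. TPM4, another tropomyosin gene, was lower by 0.24 at 20 h (limma adjusted p = 0.0213), a sign that turned when arrays were centred on the reference genes. All 3 control arrays had the same TPM4 value, 9.62 (SD 0), which lowers the estimated spread behind that p-value. TPM2 was not called.

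MYL9 encodes a regulatory light chain of non-muscle and smooth muscle myosin. It read 9.28, 9.32 and 9.35 in 20 h cells and 9.49, 9.39 and 9.35 in 8 h cells, against 9.23, 9.16 and 9.66 in controls, whose range covered both treated groups. Its differences were -0.04 at 20 h (95% interval -0.31 to 0.24, limma adjusted p = 0.867) and 0.06 at 8 h (-0.21 to 0.33, limma adjusted p = 0.834). Without control replicate 3 these became 0.12 and 0.22, still not called. Among its relatives, the light chain gene MYL12B rose by 1.26 at 20 h (SE 0.11, limma adjusted p = 1.72e-05) and by 0.53 at 8 h (limma adjusted p = 0.0131), and MYH10, a non-muscle myosin heavy chain gene, fell by 1.32 at 20 h (SE 0.10, limma adjusted p = 5.3e-06).

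VCL encodes vinculin, which ties integrin adhesions and cell junctions to actin. It read 9.08, 8.92 and 8.79 in 20 h cells and 9.49, 9.42 and 9.36 in 8 h cells, against 9.45, 9.50 and 9.51 in controls. The 20 h arrays lay below all others, and the 8 h and control arrays overlapped. VCL fell by 0.56 at 20 h (SE 0.09, limma adjusted p = 0.000806), a 1.47-fold reduction, and differed by -0.07 at 8 h (95% interval -0.26 to 0.13, limma adjusted p = 0.741).

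FHL2 encodes a LIM domain adaptor that is found at adhesions and in the nucleus and is a known SRF target. It read 6.06, 5.91 and 6.05 in 20 h cells and 5.89, 5.94 and 6.05 in 8 h cells, against 5.53, 5.46 and 5.51 in controls. Both treated groups were wholly above the controls and overlapped each other. FHL2 rose by 0.46 at 8 h (SE 0.08, limma adjusted p = 0.00434) and by 0.51 at 20 h (SE 0.08, limma adjusted p = 0.000687), or 1.37-fold and 1.42-fold. Leaving out control replicate 3 moved neither change by more than 0.01. Its relative FHL3 rose by 0.65 at 20 h (limma adjusted p = 0.00477).

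FILIP1L encodes a protein related to the filamin A interacting protein. It read 4.42, 4.27 and 3.82 in 20 h cells and 3.82, 3.82 and 3.95 in 8 h cells, against 3.41, 3.43 and 3.57 in controls. All treated arrays were above all control arrays, but 20 h replicate 3 lay among the 8 h arrays, and the SD of 0.31 at 20 h was the widest of the 9 genes in that group. FILIP1L rose by 0.70 at 20 h (SE 0.14, limma adjusted p = 0.00281), or 1.63-fold, and its 8 h difference of 0.40 (SE 0.14) had a limma adjusted p = 0.1. Without 20 h replicate 3, which lowers the estimated spread, the 8 h difference passed (limma adjusted p = 0.018). The level of FILIP1L, with a mean of 3.83, was under the median of all genes, the other 8 being above it.

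**Figure D3:**
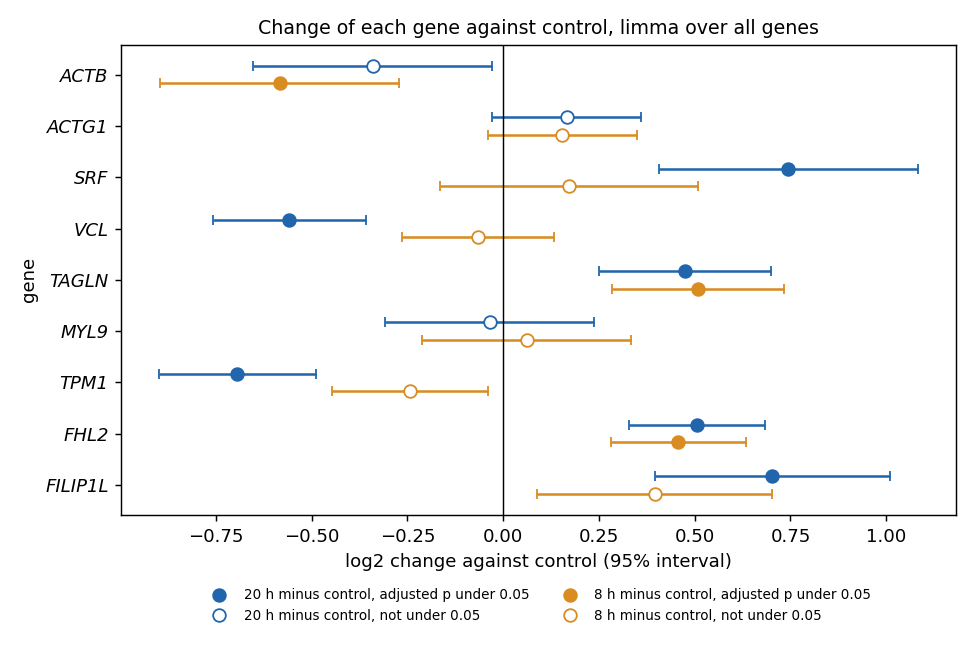
Log2 change of each of the 9 genes against control at 20 h (blue) and 8 h (orange), with 95% intervals from limma over all 9 arrays; filled points have an adjusted p under 0.05. TAGLN and FHL2 are called higher at both times, SRF and FILIP1L higher and VCL and TPM1 lower at 20 h, and ACTB lower at 8 h.

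Counted over the 9 genes, 4 were called higher and 2 lower at 20 h, against backgrounds of 13.1% higher, 17.2% lower and 30.3% in either direction over all genes. At 8 h, 2 were called higher and 1 lower, where 5.93% of all genes were higher, 6.28% lower and 12.2% either. The ranges of the 2 groups did not overlap for 7 of the 9 at 20 h and for 5 at 8 h, against 40.6% and 27.4% of all genes. The median change of the 9 was 0.17 at 20 h and 0.15 at 8 h, and that of all genes was 0.03 at 20 h and -0.003 at 8 h. The list thus held changes in both directions at each time, from -0.69 to 0.75 at 20 h and from -0.58 to 0.51 at 8 h.

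Set against 8 h cells, 20 h cells had higher SRF and lower VCL and TPM1. SRF differed by 0.57 (SE 0.15, limma adjusted p = 0.0209), VCL by -0.49 (SE 0.09, limma adjusted p = 0.00306) and TPM1 by -0.45 (SE 0.09, limma adjusted p = 0.00572). The SRF call ended without 8 h replicate 1 (limma adjusted p = 0.057) or 3 (0.081) and without 20 h replicate 2 (0.0765) or 3 (0.0664). With arrays centred on the reference genes, VCL differed by -0.17 (limma adjusted p = 0.0972) and TPM1 by -0.13 (limma adjusted p = 0.281), and the median of all genes moved by 0.32. Over all genes 8.95% were called higher, 13.6% lower and 22.6% either in this comparison, and the ranges of 4 of the 9 genes were apart, against 38.3% of all genes. TAGLN differed by -0.03 (95% interval -0.26 to 0.19), FHL2 by 0.05 (-0.13 to 0.22), ACTG1 by 0.01 (-0.18 to 0.21) and MYL9 by -0.10 (-0.37 to 0.18), none of them called. ACTB was 0.24 higher at 20 h than at 8 h (SE 0.14, limma adjusted p = 0.261), a difference that passed without control replicate 3 (limma adjusted p = 0.0356). FILIP1L was 0.31 higher (SE 0.14, limma adjusted p = 0.146), and 0.48 higher without 20 h replicate 3 (limma adjusted p = 0.00863).

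Other cytoskeletal genes described as SRF targets also moved both ways. Of 22 measured, 3 were higher and 7 lower at 20 h, beside 13.1% and 17.2% of all genes. At 8 h 3 were called higher and 0 lower by limma, beside 5.93% and 6.28% of all genes. At an unadjusted p under 0.05, 9 were higher and 1 lower at 8 h, beside 2472 and 2799 of all 22109 genes. The median changes were 0.02 at 20 h and 0.13 at 8 h. TUFT1, which encodes tuftelin, rose by 1.30 at 20 h (SE 0.10, limma adjusted p = 5.35e-06) and by 1.16 at 8 h (SE 0.10, limma adjusted p = 6.84e-05). ZYX, which encodes the adhesion protein zyxin, rose by 1.01 at 20 h (SE 0.18, limma adjusted p = 0.00161). CAPZA1, a subunit of the filament capping protein, fell by 0.61 at 20 h and CNN2, which encodes a calponin, by 0.43, or by 0.29 without control replicate 3. At 8 h LIMA1 and ITGA5 were the other called genes, higher by 0.55 and 0.44. The 8 h call of ITGA5 ended with arrays quantile normalised again and with arrays centred on the reference genes. Without control replicate 3 the 20 h counts were 5 higher and 4 lower, and 6 were higher at 8 h. ZYX was then called at 8 h (0.70, limma adjusted p = 0.00152) and ITGA5 at 20 h (0.50, limma adjusted p = 0.00324). With arrays centred on the reference genes the 20 h counts were 10 higher and 1 lower. Of all 22109 genes, 14045 were called with that centring, 83.7% of them higher. CNN2 then lost its 20 h call, and TPM4 turned from lower to higher without passing the test.

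The immediate early genes that SRF is known to drive with the ternary complex factors were all called higher at 20 h, 11 of 11. Their median change was 2.63. Of all genes, 13.1% were called higher at 20 h and 5.93% at 8 h. The transcription factor genes FOSB, EGR1 and JUNB rose by 4.14, 4.03 and 3.14 at 20 h, and ARC, named for the cytoskeleton-associated protein of active neurons, by 4.13. At 8 h FOSB rose by 2.19, EGR1 by 1.96, NR4A1 by 1.18 and EGR3 by 0.99. With control replicate 3 left out, EGR1 rose by 2.82 at 8 h and by 4.89 at 20 h, and FOSB by 2.66 at 8 h and by 4.61 at 20 h. In all, 5 of 11 were called higher at 8 h, with a median of 0.77, and control replicate 3 was above both other controls for all 11, by a median of 0.75. Without that array 7 were called higher at 8 h, JUNB among them (1.16, limma adjusted p = 0.000612), and 11 at 20 h.

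Of 28 genes that assemble and turn over actin filaments, 13 were lower and 6 higher at 20 h, with a median change of -0.27. Over all genes 17.2% were lower and 13.1% higher at 20 h, with a median change of 0.03. DIAPH3, a formin that nucleates filaments, fell by 1.67 at 20 h (SE 0.09, limma adjusted p = 8.55e-07), and another formin gene, DIAPH2, by 0.75. The small GTPase genes RND3 and RHOB rose, by 1.60 (SE 0.12, limma adjusted p = 4.86e-06) and 1.59 (SE 0.09, limma adjusted p = 8.01e-07). The median turned to 0.01 with arrays centred on the reference genes, where 10 were higher and 8 lower, while DIAPH3 and DIAPH2 were still lower. That centring moved the median of all genes by 0.27 at 20 h. It called 14045 of all 22109 genes, 83.7% of them higher. At 8 h 3 of the 28 were higher and 2 lower, beside 5.93% and 6.28% of all genes. RND3 rose by 1.27, WASL, an activator of the branching complex, by 0.69 and RHOB by 0.65, TMSB4X, which encodes an actin monomer binding protein, fell by 0.65 and RHOA fell by 0.47.

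Of 14 focal adhesion genes, 4 were higher and 4 lower at 20 h, beside 13.1% and 17.2% of all genes. VASP, which promotes filament elongation, rose by 1.09 (SE 0.14, limma adjusted p = 0.000175) and ZYX, which was also in the list above, by 1.01, SRC, a kinase gene, rose by 0.48, and LIMS1, an adaptor of integrin-linked kinase, fell by 0.65. TES, the other gene called higher, lost its 20 h call without control replicate 3 (limma adjusted p = 0.0878) and with arrays centred on their medians or quantile normalised again. Centred on the reference genes, 7 of the 14 were higher and 1 lower at 20 h. With that centring 14045 of all 22109 genes were called at 20 h, 83.7% of them higher. The change of PTK2, which encodes focal adhesion kinase, then turned from -0.23 to a value above 0. At 8 h TES alone was called, higher by 0.38, and 5 were higher without control replicate 3. Among those 5 were ZYX (0.70, limma adjusted p = 0.00152), VASP (0.59, limma adjusted p = 0.00932) and SRC (0.51, limma adjusted p = 0.032). Among 18 measured family relatives of the 9 genes, 4 were higher and 4 lower at 20 h, beside the same 13.1% and 17.2%. At 8 h 1 of them was higher, beside 5.93% of all genes. Centred on the reference genes, 12 of the 18 were higher and 1 lower at 20 h, where 83.7% of all calls were higher. The muscle actin genes ACTA1, ACTA2, ACTC1 and ACTG2 were not called at either time, with differences from -0.11 to 0.32. Their group means were low, from 1.92 (ACTC1, controls) to 3.07 (ACTA1, 20 h cells), under the median of all genes (3.89). At such levels a missing call does not show that they were unchanged.

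**Figure D4:**
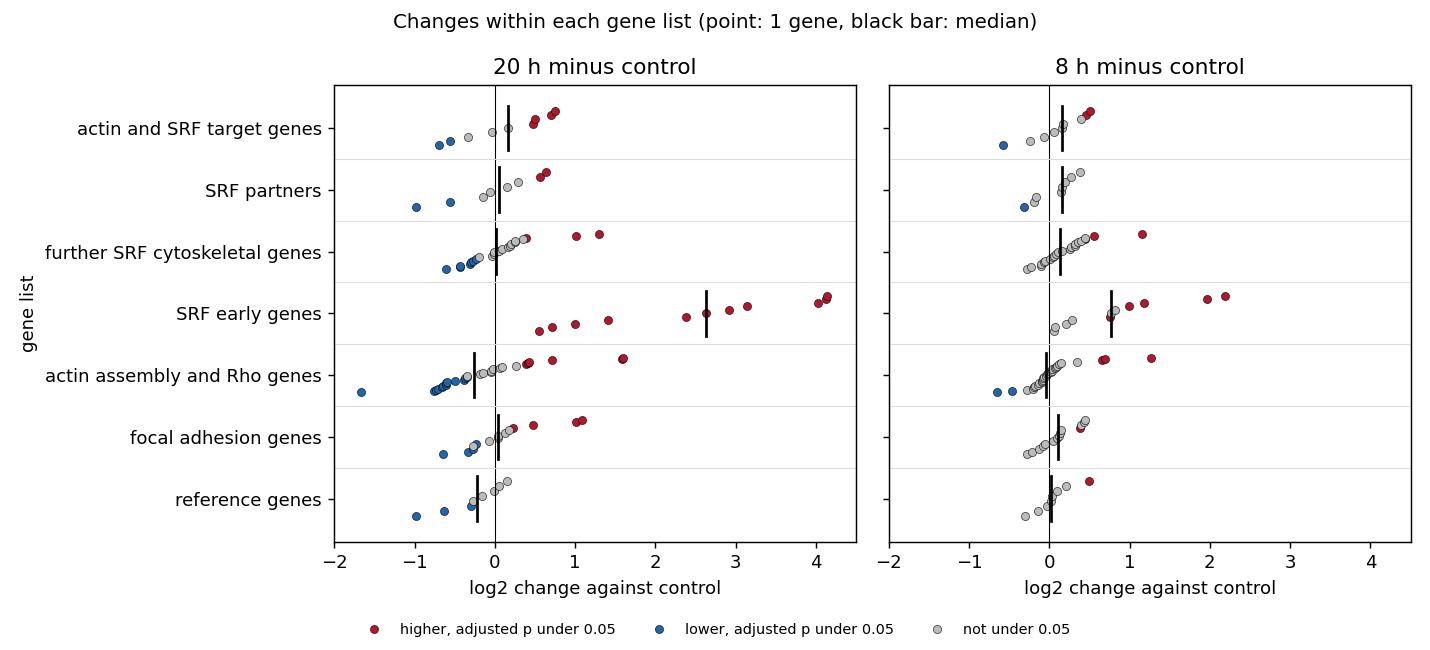
Log2 change against control at 20 h (left) and 8 h (right) for the genes of 7 lists; each point is 1 gene, coloured by its limma call, and black bars are list medians. At 20 h SRF early genes are all higher with a median of 2.63, and actin assembly genes spread from -1.67 to 1.60.

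The genes whose values followed each of the 9 most closely were read from Pearson's r over the 9 arrays, among genes above the median level. This is a description: the arrays share 3 groups, so a gene that differs between groups gains a high r. For SRF they were PCBP1 (r = 0.994), PRR14 (0.991) and SOX9 (0.989). For TPM1 they were PLEKHA5 (0.993), SLC25A27 (0.991) and IFT81 (0.986), and for VCL POLE (0.986), ARMC10 (0.985) and PAICS (0.978). FHL2 was followed by DNAJB9 (0.987), KCTD5 (0.986) and USP12 (0.985), and TAGLN by ASAP1 (0.977), MFGE8 (0.965) and TM2D3 (0.962). ACTB was most like TMEM138 (0.990), EIF4EBP2 (0.977) and COLGALT1 (0.974), and MYL9 most like SH3RF2 (0.983), AP1M1 (0.949) and PROSER3 (0.944). For ACTG1 the closest were POLR2E (0.968), FUT4 (0.952) and PPL (0.951), and for FILIP1L SELENOK (0.975), FGD6 (0.975) and ZNHIT1 (0.971). None of the 27 places was taken by another of the 9 genes.

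**Figure D5:**
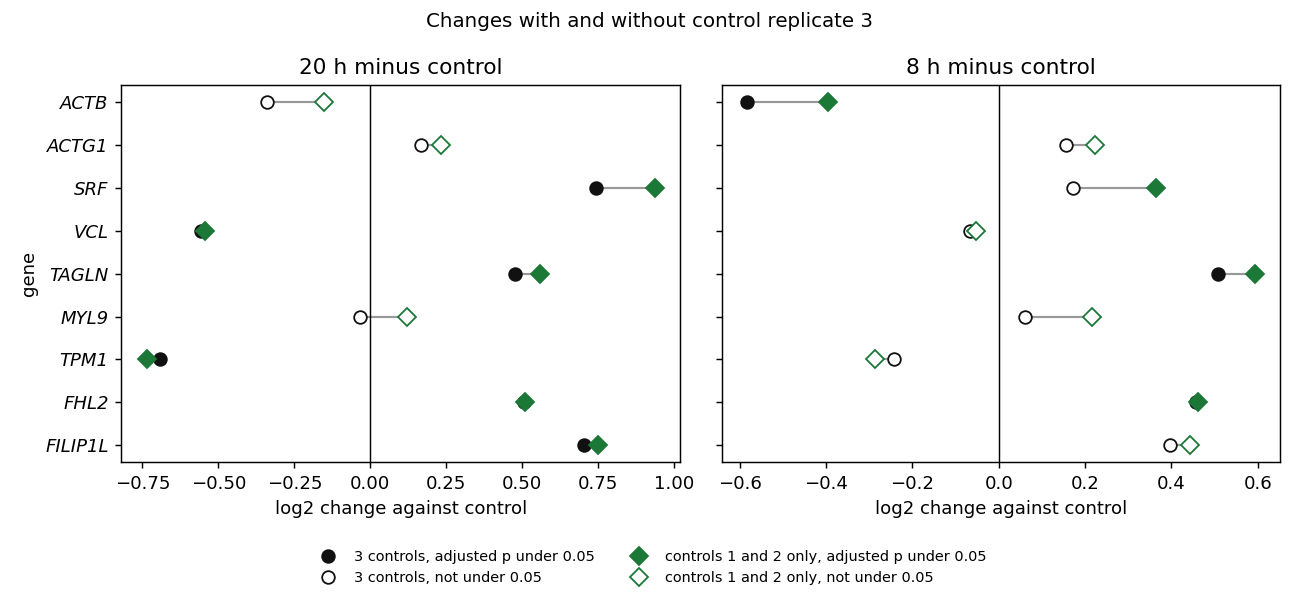
Log2 change of the 9 genes against control at 20 h (left) and 8 h (right), with controls 1 and 2 only (green diamonds) and with all 3 controls (black circles); filled symbols have a limma adjusted p under 0.05. The change of SRF moves to 0.36 at 8 h and 0.94 at 20 h without control replicate 3, that of ACTB at 8 h moves to -0.39, and those of FHL2 and VCL hardly move.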

How the data were processed

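RNA from 9 MDA-MB-231 samples in 3 groups was measured on Affymetrix whole-transcript arrays. The deposited values tested as log2 RMA summaries, made by the authors with RMA in Affymetrix Expression Console, per the submitters' processing notes. Software versions and the genome build are not given in the sources used here. Of 53617 probe sets, 23558 carried 1 symbol, and 27904 were outside the annotation table. The brightest probe set was kept for each of 22109 genes.

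A single model with a mean for each group, run with lmFit and eBayes of limma 3.58.1 under R 4.3.3, used all 9 arrays (6 residual and 4.01 prior degrees of freedom). Benjamini-Hochberg adjustment of the two-sided p-values covered all 22109 genes, and an adjusted p under 0.05 made a call. The code was tested on simulated data. With 3 arrays a side, 0.1 is the smallest p of an exact permutation test. The precision is limited by the number of arrays.

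The genes, the other lists and the alternatives were chosen with earlier results of these data known. All 10 genes are named, with up to 4 called genes of each other list at each time by size of change, any gene of a list with at most 8 measured genes, and for each of the 9 the 3 most similar genes. Genes named beyond these (TAGLN2, TPM2, TPM4, ACTA1, ACTA2, ACTC1, ACTG2, RHOA and PTK2) were picked after their values were seen. Deviations of arrays with the same replicate number correlated between -0.318 and 0.111, so no shared effect of the number was seen. With 3 arrays in each group this cannot show that samples were not paired. Alternatives covered the probe set choice, dim genes, scaling, weights, variance model, block and each array left out. Python 3.11.15 with pandas 2.3.3, numpy 2.4.6 and matplotlib 3.10.9 made the tables and plots.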

Additional observations from a re-analysis of the deposited data

Results flagged for a closer look

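The changes against control differed between the treated groups for 3 of the 9 genes, by the test of 20 h against 8 h in limma. SRF was higher at 20 h by 0.57 (adjusted p = 0.0209), while VCL differed by -0.49 (adjusted p = 0.00306) and TPM1 by -0.45 (adjusted p = 0.00572). These tests use 3 arrays in each group, and dose and time differ together between them.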

How the results depend on the processing

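Over the 20 alternatives to each of the 27 changes of single genes (19 for FILIP1L, left out by the filter on dim genes), 501 values kept their direction and side of the threshold, 10 lost the call, 12 gained it and 14 changed sign. The 20 h calls of SRF, VCL, TAGLN, TPM1, FHL2 and FILIP1L and the 8 h calls of TAGLN and FHL2 held in every alternative run. The 8 h call of ACTB also ended with only the 2 groups compared (limma adjusted p = 0.072) and with 8 h replicates 1 and 2 counted as 1 (0.0576). Centring arrays on the reference genes moved the median of all genes by 0.27 at 20 h and 0.32 between 20 h and 8 h; HPRT1, PPIA and GUSB of that list were themselves lower at 20 h. Genes called were then 14045 at 20 h and 14266 between 20 h and 8 h, against 6704 and 4991, and the share of calls higher was 83.7% at 20 h and 90.6% between 20 h and 8 h, against 43.2% and 39.7%. Of the 9 genes, 6 were then called between 20 h and 8 h, all higher; VCL (-0.17, adjusted p = 0.0972) and TPM1 (-0.13, adjusted p = 0.281) lost their calls. Centring subtracts the same value from every gene of an array, so both stayed lower relative to the shift of 0.32 by construction. At 8 h the share of calls higher was 38.5% with that centring and 38.0% with repeated quantile normalization, against 48.6%. With array weights 5 of the 9 genes were called at 8 h, where FILIP1L (adjusted p = 0.0434) and TPM1 (adjusted p = 0.0368) passed.

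The changes of sign were all of values not called with the settings reported. MYL9 turned to 0.24 (reference genes), 0.049 (array weights) and 0.12 (without control replicate 3) at 20 h, to 0.22 between 20 h and 8 h (reference genes) and to -0.034 at 8 h (without control replicate 2). TAGLN between 20 h and 8 h became 0.046 (quantile), 0.28 (reference genes, adjusted p = 0.0459), 0.010 without 8 h replicate 1 and 0.014 without 20 h replicate 1, ranging from -0.10 to 0.014 over the arrays left out. ACTG1 between 20 h and 8 h became -0.036 (quantile), -0.024 (array medians), -3e-04 (array weights), -0.024 (without 8 h replicate 3) and -0.033 (without 20 h replicate 2), ranging from -0.033 to 0.038 over the arrays left out. Leaving out each array gave 1807 to 2923 genes called at 8 h, 5697 to 6891 at 20 h and 3611 to 5583 between them, and 2 to 4, 6 to 6 and 2 to 4 of the 9 genes. With the replicate number as a replicate block, 2204, 6331 and 4519 genes and 3, 6 and 3 of the 9 genes were called (8 h, 20 h and 20 h against 8 h). Genes near the array's floor, among them FILIP1L, TAGLN and TPM1, may have compressed changes.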
